A study of Rattus norvegicus with 12 samples.

Results

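The MAPK phosphatases and Sprouty genes are feedback genes of growth factor signalling, and 10 of them were chosen by gene symbol: Dusp1, Dusp2, Dusp4, Dusp5, Dusp6, Dusp8, Dusp10, Spry1, Spry2 and Spry4. Of these, 9 had a row among the 17268 gene symbols of the count table, and Dusp1 was not analysed here. Levels were measured by RNA sequencing of the cerebral cortex of adult male Sprague Dawley rats in 4 groups of 3 libraries each. Sham rats had the carotid surgery without a clot, and Model rats received an embolic clot in the middle cerebral artery. The rt-PA rats had the same stroke and were given recombinant tissue plasminogen activator, a thrombolytic drug, intravenously at 6 h. The rt-PA+Acu rats had the stroke, the same rt-PA at 6 h and, in addition, needle acupuncture at the acupoints GV26 and PC6 at 2 h. The labels place the PC6 needle on the left forelimb and the study's methods on both sides. No group received acupuncture without rt-PA, and the hour at which cortex was taken for sequencing is not given in the sources used here. The labels number the libraries of a group 1 to 3 and do not say that each came from its own rat, so p-values measure the spread between these samples, which may be technical.

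MAP kinases (ERK, JNK and p38) are switched on by phosphorylation of a threonine and a tyrosine, and the dual-specificity phosphatases encoded by the Dusp genes remove both phosphates. Sprouty proteins act further upstream and restrain the signal from receptor tyrosine kinases to RAS and ERK. Many of these genes are themselves transcribed when ERK is active, so that their mRNA is widely used as a readout of recent MAPK signalling, and in the brain several are induced by neuronal activity, growth factors and ischemia.

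Total counts were between 11678450 and 13616935 per library, and 3 counts, taken as the limit of detection, stood for 0.208 to 0.262 CPM, the normalised read count of a gene relative to the library total after scaling with TMM factors. This limit of detection covers counting error only. All 9 genes passed the filter on low counts in all 6 comparisons, and the lowest count of any of them was 11, for Dusp2 in rt-PA+Acu replicate 1. Replicates 1 and 3 were the least alike pair in both the Model and the rt-PA+Acu group, with a chi-square per degree of freedom of 37.1 and 53.3, while the pairs within Sham gave 9.01 to 13.2. All 8 markers of cortical neurons were detected in every group, with summed levels of 3839 to 6703 CPM, of which Snap25 alone made a mean of 2246 to 2721 CPM per group. Markers of striatal neurons also had counts in every group, summing to 224.6 to 521.2 CPM in Sham and to 105.8 to 154 CPM in the 9 libraries of the stroke groups.

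In Model cortex 5 of the 9 feedback genes rose over Sham (Dusp2, Dusp4, Dusp5, Dusp6 and Spry1) and none fell, where 9.43% of 12884 genes tested were called higher and 12% lower. A gene was called when the adjusted p of edgeR's quasi-likelihood test was under 0.05 and the absolute log2 fold change was over 1. The median log2 fold change of the 9 genes was 1.06, and that of all genes tested was 0.01. Libraries of Model and Sham did not overlap for 7 of the 9 genes, 6 of them higher in Model and 1, Dusp8, lower, where 32.2% and 31.4% of all genes were higher and lower without overlap. In bulk tissue, a change in the share of a cell type and a change in RNA per cell cannot be told apart.

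**Figure D1:**
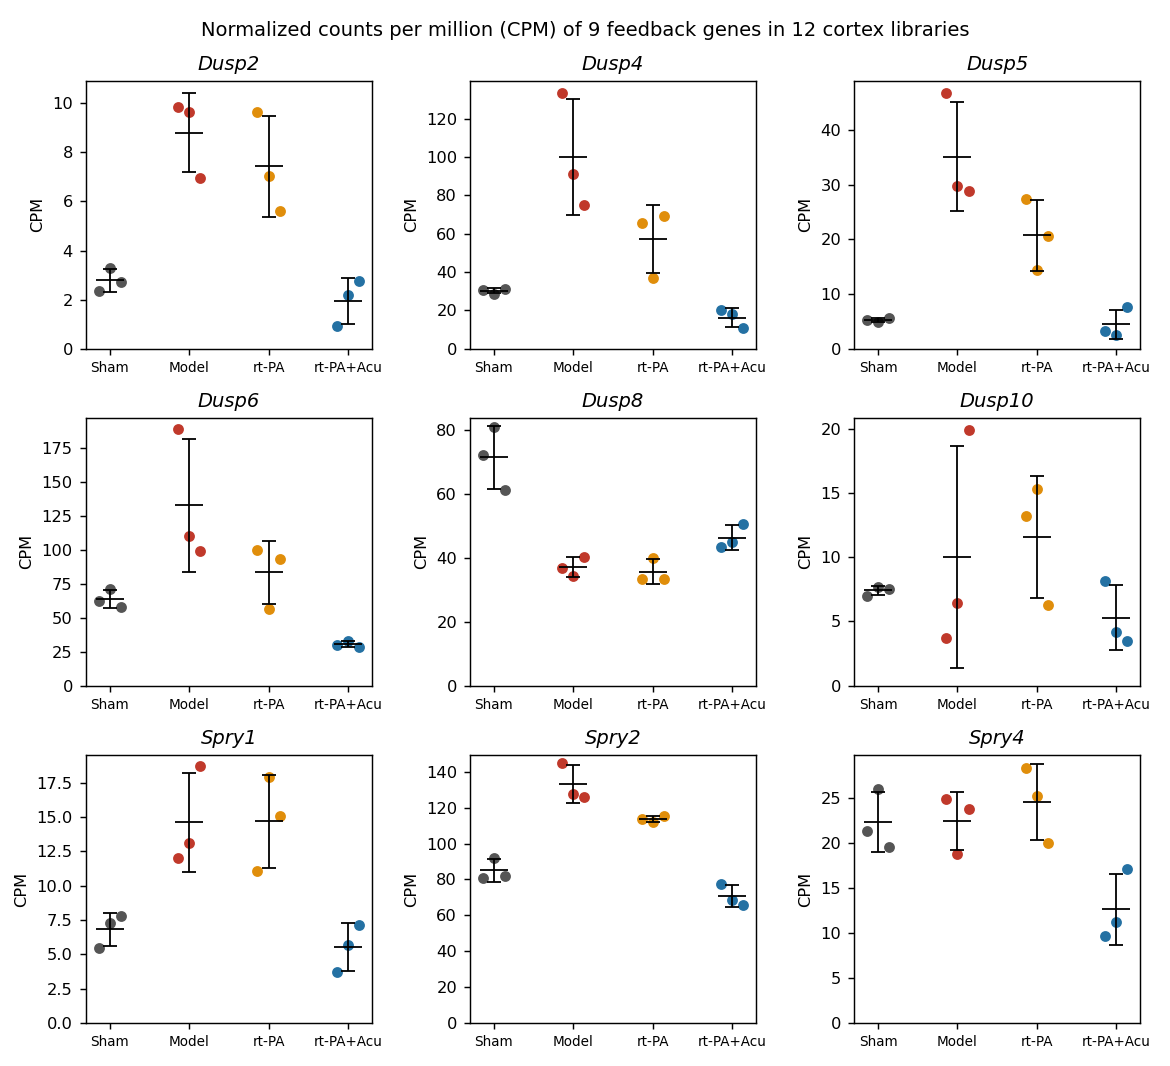
Level of each of the 9 feedback genes in CPM (y axis, from 0, a scale per gene) in the 4 groups (x axis), with a point per library in the order of the replicate numbers, a line at the group mean and bars for the SD over 3 libraries. Dusp4 and Spry2 separate all 4 groups, with Model highest and rt-PA+Acu lowest, Dusp8 is highest in Sham, and Spry4 is at 9.61 to 17.1 CPM in rt-PA+Acu against 18.8 to 28.3 CPM in the other libraries.

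Dusp5 encodes a nuclear phosphatase specific for ERK. Its level was 5.24, 4.82 and 5.59 CPM in Sham replicates 1, 2 and 3 and 46.8, 29.9 and 28.9 CPM in Model. It was 27.3, 14.4 and 20.6 CPM in rt-PA and 3.29, 2.53 and 7.54 CPM in rt-PA+Acu. Every Model and rt-PA library lay above every Sham and rt-PA+Acu library, and rt-PA+Acu lay on both sides of Sham. Dusp5 showed the largest increase of the 9 genes in Model, 6.79-fold over Sham (log2 fold change 2.76, SE 0.23, adjusted p = 4.8e-05). It also showed the largest decrease of the 9 with acupuncture, at 4.61-fold below rt-PA (log2 fold change -2.20, SE 0.43, adjusted p = 0.00845). Leaving out any 1 library kept the log2 fold change between 2.50 and 2.89 in the first comparison and between -2.82 and -1.92 in the second.

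The promoter of Dusp5 is shown because it held the only CArG boxes among the promoters of these genes, the sequence bound by serum response factor, a factor that acts in growth factor and ERK-dependent transcription. Promoters came from RefSeq (build GRCr8), with 300 bases per start site, and 8 of the 9 genes had an entry, Dusp4 having none. Dusp5 lies on chromosome 1, plus strand, and the 70 bases printed run from 110 to 41 bases before the start site. Capitals mark 2 CArG boxes that abut without overlap, starting 82 and 72 bases before the start site, and the CRE core TGACG, read here on the other strand as CGTCA at 55 bases before it.
Dusp5, chr1:262543664-262543733, plus strand: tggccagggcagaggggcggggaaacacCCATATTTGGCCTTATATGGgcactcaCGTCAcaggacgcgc
A CArG box was present in 1 of the 8 genes and in 1.64% of 33469 promoters of this length, both strands searched. The CRE core, which lies within the full CRE TGACGTCA, was present in 3 of 8 genes and in 21.2% of promoters. A match is a run of letters and not evidence of binding, and the motifs were chosen after the expression values were known.

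Dusp4 encodes another nuclear phosphatase, acting on ERK and JNK. Its level was 30.7, 28.6 and 31.3 CPM in Sham replicates 1 to 3 and 134, 91.1 and 75.1 CPM in Model. It was 65.6, 36.6 and 69.2 CPM in rt-PA and 19.9, 18.2 and 10.52 CPM in rt-PA+Acu. The 4 groups did not overlap, in the order rt-PA+Acu, Sham, rt-PA and Model from low to high. Dusp4 was 3.33-fold higher in Model than in Sham (log2 fold change 1.74, SE 0.20, adjusted p = 0.000238) and 3.54-fold lower with acupuncture than with rt-PA alone (log2 fold change -1.82, SE 0.31, adjusted p = 0.00552).

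Dusp2 encodes a nuclear phosphatase of ERK and p38 best known from activated immune cells. Its level was 2.34, 3.29 and 2.71 CPM in Sham replicates 1 to 3 and 9.85, 9.65 and 6.94 CPM in Model. It was 9.64, 7.04 and 5.61 CPM in rt-PA and 0.927, 2.18 and 2.76 CPM in rt-PA+Acu. The Model and rt-PA libraries overlapped each other and lay above all Sham and rt-PA+Acu libraries, which also overlapped. Dusp2 was 3.18-fold higher in Model than in Sham (log2 fold change 1.67, SE 0.25, adjusted p = 0.000808) and 3.76-fold lower with acupuncture than with rt-PA alone (log2 fold change -1.91, SE 0.41, adjusted p = 0.0119). The summed level of 5 lymphocyte markers was 0 to 0.161 CPM in Sham, 0.458 to 1.40 CPM in Model, 1.01 to 4.65 CPM in rt-PA and 0 to 0.597 CPM in rt-PA+Acu. In Sham 3 of these markers were at 0 in all libraries (1 in rt-PA+Acu). The sums lay below 3 CPM in 11 of the 12 libraries, and their part in the Dusp2 values was not tested.

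The Dusp2 promoter is shown for the match to the EGR motif GCGNGGGCG, which early growth response factors bind. Dusp2 lies on chromosome 3, plus strand, and the 130 bases printed end 1 base before the start site. Capitals mark, from left to right, an E-box CACGTG, the EGR motif 112 bases before the start site, and the CRE core, again as CGTCA.
Dusp2, chr3:135009506-135009635, plus strand: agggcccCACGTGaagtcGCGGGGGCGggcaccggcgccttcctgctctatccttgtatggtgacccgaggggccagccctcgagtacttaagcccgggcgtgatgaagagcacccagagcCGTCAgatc
The EGR motif was present in 4 of the 8 genes (Dusp2, Dusp5, Dusp8 and Spry2) and in 4.98% of all promoters. These promoters were also richer in G and C, with a median of 62.3% over the 9 start sites of the 8 genes and 51.7% over all promoters. The E-box was in 1 of 8 genes and in 6.42% of promoters. The full CRE, the AP-1 motif TGANTCA, the ETS motif CCGGAAGT and the NF-kappaB motif, present in 1.83%, 7.33%, 3.81% and 4.18% of promoters, had no match in these windows.

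Dusp6 encodes the cytoplasmic phosphatase specific for ERK and is the member most often used as a readout of ERK activity. Its level was 62.3, 71.2 and 57.9 CPM in Sham replicates 1 to 3 and 189, 110 and 99.3 CPM in Model. It was 100.05, 56.4 and 93.2 CPM in rt-PA and 30.0, 33.1 and 28.5 CPM in rt-PA+Acu. Model replicate 1 was the highest library and rt-PA replicate 2 the lowest of its group, below all Sham libraries, while rt-PA+Acu lay below every other library. Dusp6 was 2.09-fold higher in Model than in Sham (log2 fold change 1.06, SE 0.23, adjusted p = 0.00521). The call ended without Model replicate 1 (log2 fold change 0.71, adjusted p = 0.00182) or without Sham replicate 3 (0.99, adjusted p = 0.0255), in both cases through the fold threshold. With acupuncture it was 2.73-fold below its level in rt-PA (log2 fold change -1.45, SE 0.22, adjusted p = 0.00369).

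Dusp8 encodes a phosphatase of JNK and p38 that is abundant in brain, and it was the 1 gene of the 9 with a lower mean in Model than in Sham. Its level was 72.2, 81.0 and 61.5 CPM in Sham replicates 1 to 3 and 36.9, 34.4 and 40.5 CPM in Model. It was 33.5, 40.2 and 33.4 CPM in rt-PA and 43.5, 44.9 and 50.8 CPM in rt-PA+Acu. All stroke libraries lay below all Sham libraries, and rt-PA+Acu lay between Sham and both other groups without overlap. The difference of Model from Sham passed the adjusted p but stayed short of the fold threshold (log2 fold change -0.94, SE 0.12, adjusted p = 0.000439). Without Sham replicate 3 it was called lower (-1.04, adjusted p = 0.000885), in the same fit in which Dusp6 lost its call. In rt-PA+Acu against rt-PA the log2 fold change was 0.38 (SE 0.13, adjusted p = 0.0519).

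Dusp10 encodes the other phosphatase of JNK and p38 in the set, and its level in Model had a mean of 10.03 CPM with an SD of 8.66 CPM (n = 3). Its level was 7.01, 7.72 and 7.51 CPM in Sham replicates 1 to 3 and 3.74, 6.43 and 19.9 CPM in Model. It was 13.2, 15.3 and 6.27 CPM in rt-PA and 8.17, 4.19 and 3.51 CPM in rt-PA+Acu. Every group overlapped its neighbours, and of the Model libraries replicate 3 alone lay above all Sham libraries. Dusp10 was not called in Model against Sham (log2 fold change 0.44, SE 0.52, adjusted p = 0.506), and without Model replicate 3 the value was -0.54 (adjusted p = 0.125). In rt-PA+Acu against rt-PA its log2 fold change was -1.13 (SE 0.42, adjusted p = 0.0725). The second value was called by DESeq2 (adjusted p = 0.0308), with library size alone in place of TMM (0.0499), without rt-PA replicate 3 (0.0386) and without rt-PA+Acu replicate 1 (0.0386).

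Of the Sprouty genes, which act between receptor and RAS, 1 of 3 was called higher in Model against Sham, where 9.43% of all genes were, and 1 of 3 lower in rt-PA+Acu against rt-PA, where 8.16% were. Spry1 was at 5.48, 7.26 and 7.77 CPM in Sham replicates 1 to 3 and at 11.99, 13.1 and 18.7 CPM in Model. It was at 11.1, 17.9 and 15.0 CPM in rt-PA and at 3.71, 5.67 and 7.16 CPM in rt-PA+Acu, so that Model and rt-PA lay together above Sham and rt-PA+Acu. Spry1 was 2.15-fold higher in Model than in Sham (log2 fold change 1.10, SE 0.23, adjusted p = 0.00418) and 2.65-fold lower with acupuncture than with rt-PA alone (log2 fold change -1.40, SE 0.29, adjusted p = 0.0103). The rise fell short of the fold threshold without Model replicate 3 (0.89, adjusted p = 0.00721) or without Sham replicate 1 (0.96, adjusted p = 0.019).

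Spry2 had 80.8, 92.2 and 82.2 CPM in Sham replicates 1 to 3 and 145, 128 and 126 CPM in Model. It had 114, 112 and 116 CPM in rt-PA and 77.5, 68.7 and 65.7 CPM in rt-PA+Acu. The 4 groups did not overlap and stood in the same order as for Dusp4, over a narrower range. Both differences passed the adjusted p and stayed short of the fold threshold: the log2 fold change was 0.65 in Model against Sham (SE 0.10, adjusted p = 0.000806) and -0.69 in rt-PA+Acu against rt-PA (SE 0.10, adjusted p = 0.0036). Of its 2 RefSeq start sites on chromosome 15, minus strand, the outer one is shown because it holds both a CRE core, 219 bases before the start, and an EGR motif, 163 bases before it, in capitals and without overlap.
Spry2, chr15:89112077-89112156, minus strand: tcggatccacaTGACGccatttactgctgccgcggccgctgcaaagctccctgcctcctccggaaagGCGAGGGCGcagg

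Spry4, another inhibitor of RAS activation, was not called in Model. Its level was 21.3, 26.0 and 19.6 CPM in Sham replicates 1 to 3, 24.8, 18.8 and 23.7 CPM in Model and 28.3, 25.2 and 19.99 CPM in rt-PA. In rt-PA+Acu it was 9.61, 11.2 and 17.1 CPM, below every library of the other groups. The log2 fold change was 0.02 in Model against Sham (SE 0.16, adjusted p = 0.934) and -0.95 in rt-PA+Acu against rt-PA (SE 0.25, adjusted p = 0.0225), short of the fold threshold. It passed with library size alone (-1.04), without rt-PA replicate 3 (-1.08) and without rt-PA+Acu replicate 3 (-1.23).

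None of the 9 genes was called between rt-PA and Model, and none of 12941 genes tested was called by edgeR (background 0%). At an unadjusted p under 0.05, 3 of the 9 genes stood out (Dusp4, Dusp5 and Spry2), where 9.92% of all genes did, and DESeq2 called 0 of the 9 and 72 of 14374 genes. For the same 3 genes every rt-PA library lay below every Model library, where 8.06% of all genes were lower without overlap. The log2 fold change was -0.80 for Dusp4 (SE 0.28, adjusted p = 0.421), -0.76 for Dusp5 (SE 0.27, adjusted p = 0.424) and -0.22 for Spry2 (SE 0.09, adjusted p = 0.48). Dusp6 stood at -0.67 (SE 0.29, adjusted p = 0.502), and the other 5 genes were between -0.24 and 0.21.

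Against Sham, the rt-PA group still had higher Dusp2, Dusp5 and Spry1 and lower Dusp8, where 11% of genes were called higher and 11.6% lower. The log2 fold change was 1.40 for Dusp2 (SE 0.27, adjusted p = 0.00344), 1.97 for Dusp5 (SE 0.25, adjusted p = 0.000394) and 1.08 for Spry1 (SE 0.23, adjusted p = 0.00487). Dusp4 had 0.90 (SE 0.22, adjusted p = 0.00952), short of the fold threshold, and passed it without rt-PA replicate 2 (1.15) and with library size alone in place of TMM (1.05, adjusted p = 0.00508). Dusp8 had -1.02 (SE 0.13, adjusted p = 0.000442) and lost its call with library size alone (-0.88) and in 3 of the 6 fits that left out 1 library. Spry1 lost its call without Sham replicate 1 (0.94) or rt-PA replicate 2 (0.93).

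With acupuncture added to rt-PA, 5 feedback genes fell (Dusp2, Dusp4, Dusp5, Dusp6 and Spry1) and none rose, where 8.16% of 12999 genes were called lower and 7.17% higher. These are the 5 genes that rose in Model. Model against Sham and rt-PA+Acu against rt-PA share no library. The share of all genes that rose in the first and fell in the second is not given here, so this overlap has no background beside it. Of all genes tested, 21.5% were called in either direction in Model against Sham and 2.06% in rt-PA+Acu against Sham. The median log2 fold change of the 9 genes was -1.40, and that of all genes tested was -0.0027. For 7 of the 9 genes every rt-PA+Acu library lay below every rt-PA library, where 26.7% of all genes did so. Against Model, which also enters the first comparison, rt-PA+Acu was lower for these 5 genes, with log2 fold changes of -1.40 for Spry1 to -2.97 for Dusp5, where 6.62% of genes were called lower.

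**Figure D2:**
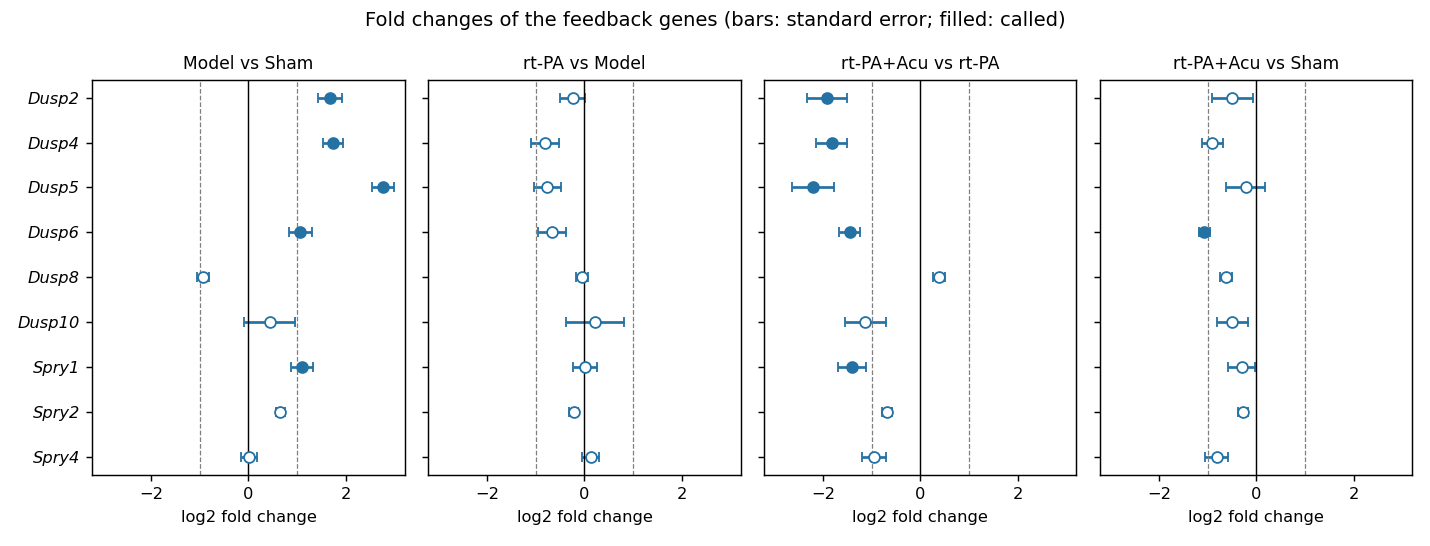
Log2 fold change (x axis) of each of the 9 genes (y axis) in 4 comparisons, with bars for the standard error, filled points for called genes and dashed lines at the fold threshold of 1 on the log2 scale. In Model against Sham 5 genes are filled to the right, none is filled in rt-PA against Model, 5 are filled to the left in rt-PA+Acu against rt-PA, and Dusp6 alone is filled in rt-PA+Acu against Sham.

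With both treatments, all 9 feedback genes had a mean below that of Sham. The share of all genes with a lower mean is not given here. Their median log2 fold change was -0.50 for the 9 feedback genes and 0.018 for all genes tested. Only 1 of the 9, Dusp6, was called lower, where 1.14% of 12775 genes were called lower and 0.916% higher. Dusp6 was 2.09-fold lower in rt-PA+Acu than in Sham (log2 fold change -1.07, SE 0.11, adjusted p = 0.00377), and without Sham replicate 2 it was short of the fold threshold (-0.98, adjusted p = 0.0303). For 5 genes (Dusp4, Dusp6, Dusp8, Spry2 and Spry4) every rt-PA+Acu library lay below every Sham library, where 15.7% of genes did so. The log2 fold change was -0.91 for Dusp4 (SE 0.22, adjusted p = 0.0542), -0.63 for Dusp8 (SE 0.13, adjusted p = 0.034), -0.82 for Spry4 (SE 0.23, adjusted p = 0.0862) and -0.27 for Spry2 (SE 0.10, adjusted p = 0.161). Dusp4 was called without rt-PA+Acu replicate 1 (-1.08, adjusted p = 0.0368) and Spry4 without rt-PA+Acu replicate 3 (-1.11, adjusted p = 0.0146). Dusp2, Dusp5, Dusp10 and Spry1 overlapped Sham, with values between -0.50 and -0.22. All 5 markers of striatal neurons were also called lower in rt-PA+Acu against Sham (median log2 fold change -3.23), as they were in Model against Sham (-2.97). Their part in the levels of the feedback genes was not tested.

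Growth factor ligands, which act upstream of these genes, had the highest median of the 7 pathway lists in Model. Of 8 tested ligands, 4 rose and 1, Tgfa, fell in Model against Sham (Tgfa -1.22, named after its value was seen), with a median log2 fold change of 1.66. Fgf1, a fibroblast growth factor, was at 2.42 to 6.02 CPM in Sham and 38.1 to 370 CPM in Model (log2 fold change 5.17, SE 0.86, adjusted p = 0.00139). Hbegf, a ligand of the EGF receptor, was at 5.06 to 7.81 CPM in Sham and 91.2 to 200 CPM in Model (4.53, SE 0.32, adjusted p = 2.67e-05). Bdnf, a neurotrophin, went from 36.7 to 40.2 CPM in Sham to 125 to 235 CPM in Model (2.35, SE 0.22, adjusted p = 9.63e-05). Areg had at most 1 count in each Sham library and was at least 5.49-fold higher in Model, against a floor of 3 counts per library. In rt-PA+Acu against rt-PA, 4 of 7 tested ligands fell and none rose, led by Hbegf (-3.12, SE 0.63, adjusted p = 0.00943), Fgf1 (-3.03, SE 0.38, adjusted p = 0.0021), Pdgfb (-1.77, SE 0.28, adjusted p = 0.00455) and Bdnf (-1.75, SE 0.21, adjusted p = 0.00195).

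The receptors and kinases of the cascade showed no common direction. Of 12 receptors, 1 rose (Fgfr1, 1.30) and 4 fell in Model, among them Pdgfra (-1.90), Erbb4 (-1.35) and Fgfr3 (-1.30). In rt-PA+Acu against rt-PA 3 receptors rose, Erbb4 (1.25), Fgfr3 (1.16) and Ntrk3 (1.07), and 2 fell, among them Fgfr1 (-1.04). In the RAS-RAF-MEK-ERK cascade, 11 of 14 genes were not called in Model, while the adaptor Grb2 rose (1.30) and the kinase Mapk3, which encodes ERK1, and the scaffold Ksr2 fell (-1.33 and -1.07). In rt-PA+Acu against rt-PA Ksr2 rose (1.18). Of 11 genes of the JNK and p38 cascade, 9 were not called in either comparison, and the kinases of p38 Map2k6 (-2.86 in Model, 2.94 in rt-PA+Acu) and Map2k3 (1.56 and -1.501) moved in opposite directions.

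**Figure D3:**
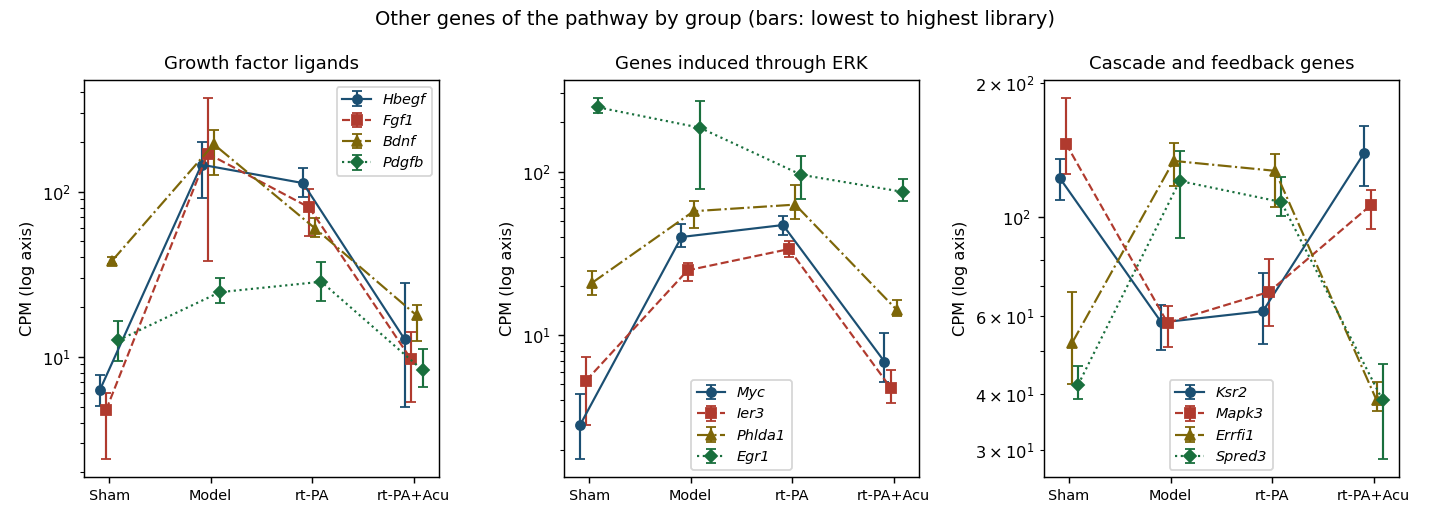
Mean CPM (y axis, log axis) of 12 other genes of the pathway in the 4 groups (x axis), for 4 growth factor ligands, 4 genes induced through ERK, and 4 cascade and feedback genes. Bars run from the lowest to the highest of 3 libraries, and the lines that join group means only guide the eye. Hbegf, Fgf1, Myc, Ier3, Errfi1 and Spred3 are higher in Model and rt-PA than in Sham and rt-PA+Acu, while Ksr2 and Mapk3 take the opposite course.

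Other inhibitors of the pathway were split. Of 9 other feedback inhibitors, Spred3 (1.53) and Errfi1 (1.37), which restrains EGF receptors, rose and Il17rd (-1.15) fell in Model, and each moved the other way in rt-PA+Acu against rt-PA (-1.48, -1.71 and 1.51). Of 10 other dual-specificity phosphatases, Dusp26 rose (1.82) and Dusp15 (-2.05), Dusp19 (-1.41) and Dusp3 (-1.11) fell in Model. In rt-PA+Acu against rt-PA Dusp26 fell (-1.61) and Dusp15 rose (1.81), and the other 8 were not called. Dusp15 is abundant in oligodendrocytes, whose 5 markers summed to 11520 to 17360 CPM in Sham, 1561 to 8202 CPM in Model, 2575 to 11050 CPM in rt-PA and 3017 to 20390 CPM in rt-PA+Acu. The part of these markers in the Dusp15 values was not tested.

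Among 13 genes induced through ERK, 5 rose and 3 fell in Model, and 7 fell and 1, Etv1, rose in rt-PA+Acu against rt-PA (1.24). Myc, a growth-promoting transcription factor, was at 1.76 to 4.35 CPM in Sham, 34.5 to 47.9 CPM in Model, 41.2 to 53.2 CPM in rt-PA and 5.14 to 10.3 CPM in rt-PA+Acu (log2 fold change 3.82 in Model and -2.76 in rt-PA+Acu against rt-PA). The immediate early gene Ier3 (2.24 and -2.80) and Phlda1 (1.46 and -2.13) followed the same course, and Epha2 had -2.21 in the second comparison. The 3 genes that fell in Model were the ETS factors Etv5 (-1.34), Etv1 (-1.05) and Etv4 (-1.09), which in other settings rise with Dusp6 and Spry genes under FGF signalling. Etv5 was at 131 to 154 CPM in Sham, 52.9 to 64.6 CPM in Model, 28.7 to 36.4 CPM in rt-PA and 43.0 to 72.2 CPM in rt-PA+Acu. Egr1, Etv5 and Bdnf were the only genes of the 7 pathway lists called in rt-PA+Acu against Sham, all lower, at -1.72 (SE 0.15, adjusted p = 0.00188), -1.22 (SE 0.19, adjusted p = 0.0143) and -1.11 (SE 0.19, adjusted p = 0.0194). Egr1, Etv1 and Etv4 were named here after their values were seen. In rt-PA against Model, edgeR called no gene of the 7 lists, and DESeq2 called 1 ligand.

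Levels of cell type markers differed between the groups as well, and single genes made most of the change in some of the sums. The summed level of 4 endothelial markers was 109.2 to 153.6 CPM in Sham, 187.5 to 344 CPM in Model, 231.1 to 344.2 CPM in rt-PA and 72 to 81.87 CPM in rt-PA+Acu. The sum of 5 markers of monocytes and macrophages was 55.82 to 71.01 CPM in Sham, 110.9 to 168.6 CPM in Model, 171 to 376 CPM in rt-PA and 29.85 to 53.88 CPM in rt-PA+Acu. Both sums were higher in every Model and rt-PA library than in any Sham library, and lower in every rt-PA+Acu library. Lyz2 made the drop of the monocyte and macrophage sum below Sham, with means of 54.15 CPM in Sham and 24.95 CPM in rt-PA+Acu. Of 4 markers tested there, Lyz2 was called lower and 3 were not called, with a median log2 fold change of 0.69. Cd68 and Msr1 had higher means in rt-PA+Acu (1.67 and 6.01 CPM) than in Sham (0.593 and 0.231 CPM), and Mrc1 and Ccr2 slightly lower ones. Kdr made most of the difference in the endothelial sum between Model and Sham, with a mean of 16.4 CPM in Sham and 117 CPM in Model. It was the 1 of 4 endothelial markers that rose (2.84). Pecam1 (0.65), Cdh5 (0.62) and Tek (-0.52) were not called. With acupuncture added to rt-PA 3 of the 4 fell, Tek being short of the fold threshold. Of the monocyte and macrophage markers 3 of 5 rose in Model and 5 of 5 fell in rt-PA+Acu against rt-PA. The neutrophil sum was 7.262 to 11.76 CPM in Sham, 4.962 to 16.93 CPM in Model, 14.75 to 81.45 CPM in rt-PA and 3.657 to 5.236 CPM in rt-PA+Acu, where 1 of its 5 markers was at 0 in all libraries. Model overlapped Sham in this sum, with 1 of 4 tested markers called higher, and 4 of 5 fell in rt-PA+Acu against rt-PA. Microglial sums were 322.7 to 406.7 CPM in Sham, 156.8 to 188 CPM in Model, 172.4 to 197.8 CPM in rt-PA and 237 to 294.8 CPM in rt-PA+Acu, with the groups separated as for Dusp8. In Model 3 of 5 microglial markers fell, and 1 of 5 rose in rt-PA+Acu against rt-PA. Of the 8 markers of cortical neurons, Rbfox3 (-1.04) and Tbr1 (-1.70) fell in Model, where the median of the list was -0.62, and Slc17a7 (1.15) and Tbr1 (1.51) rose in rt-PA+Acu against rt-PA, where it was 0.82. Astrocyte sums were 2943 to 3578 CPM in Sham and 3762 to 6522 CPM in the stroke groups. In Model, Gfap, a marker of reactive astrocytes, made the rise alone, with a mean of 391 CPM in Sham and 3342 CPM in Model. The other 4 astrocyte markers had lower means in Model, and 3 of them fell, so that the median of the list was -1.04. Of the 5 astrocyte markers 2 rose in rt-PA+Acu against rt-PA. Of 5 choroid plexus markers only Kl had enough counts to be tested in Model against Sham, with a mean of 0.538 CPM in Sham and 10.9 CPM in Model, and the means of the other 4 were below 1 CPM in every group. The part of these cell types in the levels of the feedback genes was not tested.

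**Figure D4:**
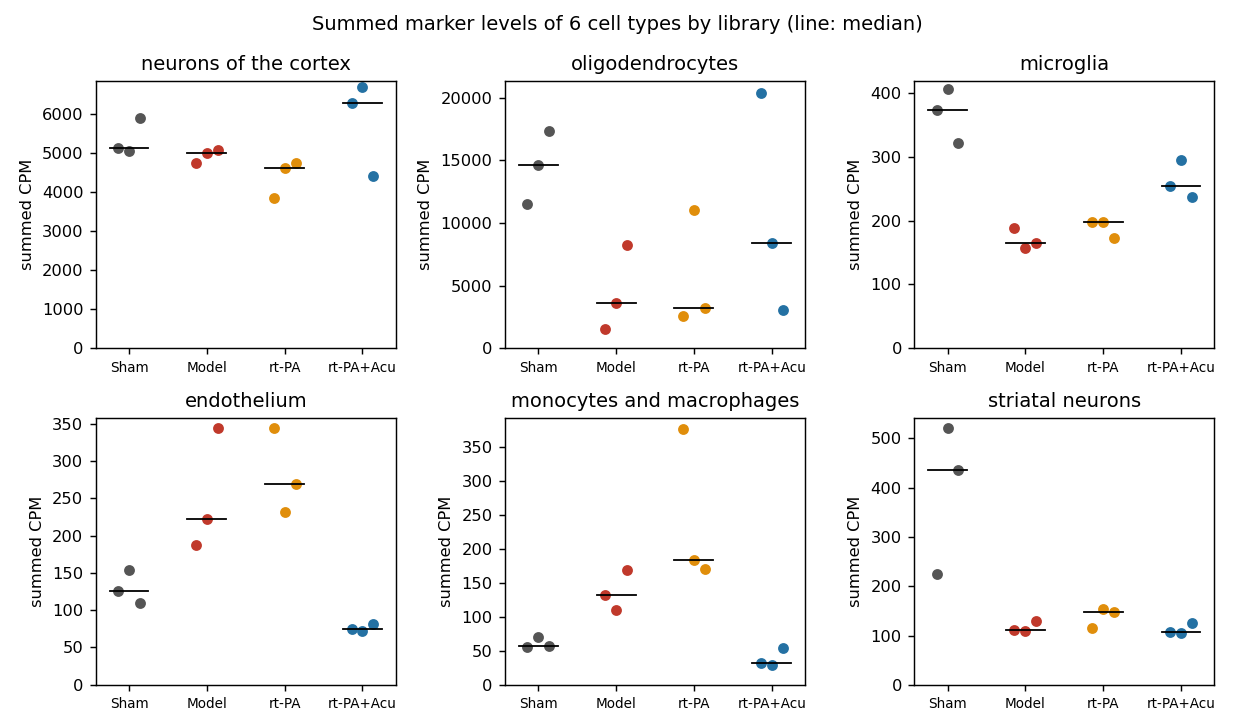
Summed CPM of the markers of 6 cell types (y axis, from 0, a scale per panel) in each library by group (x axis), with a point per library and a line at the median. The endothelial sums of 187.5 to 344.2 CPM in Model and rt-PA lie above those of Sham and rt-PA+Acu, Kdr making most of the difference between Model and Sham, and oligodendrocyte sums range from 1561 to 20390 CPM over the stroke libraries.

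By profile over the 12 libraries, the gene most like Dusp6 among 12735 genes was Lmcd1, with a root mean square difference of 0.155 in centred log2 CPM, followed by Egr3, an activity-induced transcription factor (0.249), where the log2 CPM of Dusp6 itself had a spread of 0.831. Lmcd1 was also the second nearest to Dusp4 (0.331), after Lbh (0.328). The nearest genes were Dennd2c (0.321) and Tgfb2 (0.354) for Dusp5, Cacng4 (0.272) and Htr1b (0.30) for Dusp2, and Ehd4 (0.213) and Ace (0.279) for Spry1. They were Kcnip1 (0.128) and Arhgap18 (0.133) for Dusp8, Nod1 (0.325) and Mfng (0.329) for Dusp10, Cdc34 (0.118) and Zdhhc5 (0.121) for Spry2, and Zfp36l2 (0.223) and Samd14 (0.231) for Spry4. Among the feedback genes themselves the closest pair was Dusp4 and Dusp6 (0.348, with spreads of 1.08 and 0.831). Spry2 and Spry4 came next (0.362), but with spreads of only 0.381 and 0.476. The distance is not scaled by the spread, so genes that vary little lie closer. In Model against Sham the log2 fold change was 0.65 for Spry2 and 0.02 for Spry4. The libraries share group, depth and dissection, and these distances are a description only.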

How the data were processed

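Cortical poly(A) RNA of 12 libraries was sequenced as paired reads of 150 bases from a strand-marking kit. Per the study's methods and the submitters' processing notes, the authors aligned reads to mRatBN7.2 with STAR 2.7.10a and made gene counts with Salmon 1.9.0. featureCounts 2.0.1 is also named, and its role, the annotation release and the use of the molecular identifiers in the adapters are not given in the sources used here. The deposited values are whole-number counts per gene symbol, not normalized, for 17268 symbols.

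A fit per comparison, on the 6 libraries of both groups, was made with edgeR 4.0.16 in R 4.3.3 (TMM, filterByExpr, quasi-likelihood test, Benjamini-Hochberg adjustment over all genes tested). The SE is the log2 fold change divided by the root of its F statistic. CPM used TMM factors over all 12 libraries, between 0.9476 and 1.077. limma 3.58.1 was loaded with edgeR, DESeq2 1.42.0 served as an alternative, and plots used matplotlib 3.10.9 in Python 3.11.15. The fits were tested on simulated data. Genes and lists were chosen with earlier results of these data known. Named genes were all members, up to 4 called genes per pathway list and comparison (stroke against Sham, acupuncture against rt-PA alone) with the largest absolute change, and 2 nearest profiles per member at a mean of at least 1 CPM, on the log2 CPM scale (prior count 2). Other named genes are said to be so. The result of 1 gene of the pathway lists is not reported here. Within each group the libraries differed beyond sampling noise, so none was counted as a repeat. Of the 5 red blood cell markers 1 had a row, at no more than 0.0826 CPM. Sequences came from RefSeq promoters of GRCr8, a newer build than that of the counts, matched by symbol.

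The alternatives were DESeq2, RLE factors, library size alone, a filter at 1 count in all or at 10 counts per library, a joint fit of 12 libraries, the replicate number as a block, no fold threshold, and leaving out each library.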

Additional observations from a re-analysis of the deposited data

How the results depend on the processing

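The 84 alternative fits include those of rt-PA vs Model, where 0 feedback genes and at most 0.501% of all genes were called. Agreement there is 0 against 0. The number of feedback genes called was within 1.5 times the reported number in 80 of the 84 fits. It moved only in rt-PA+Acu against Sham, where 1 gene was called: 2 genes without a fold threshold, and 0 to 2 with 1 library left out (0 without Sham replicate 2, 2 without rt-PA+Acu replicate 1 or 3), with 0.635% to 2.77% of all genes called over these 6 fits. With 1 library left out, 4 to 5 genes were called in Model vs Sham (19.3% to 24% of all genes), 5 to 7 in rt-PA+Acu vs rt-PA (10.9% to 19%), 3 to 4 in rt-PA vs Sham (20.6% to 24.3%), 5 to 6 in rt-PA+Acu vs Model (10.6% to 17.7%) and 0 in rt-PA vs Model (0% to 0.0229%). Of 756 values of single members, 14 changed sign, none of them a called value and all with 1 library left out: Spry4 (-0.076 to 0.13) and Dusp10 (-0.54 to 0.83) in Model vs Sham, Dusp10 (-0.18 to 1.18) and Spry1 (-0.16 to 0.22) in rt-PA vs Model, Dusp5 in rt-PA+Acu vs Sham (-0.85 to 0.064) and Dusp10 in rt-PA+Acu vs Model (-1.38 to 0.055). Another 11 lost and 23 gained a call, and the gains include those made only by dropping the fold threshold from the main fit. Of 588 counts of called genes over the pathway lists, 43 moved by over 1.5 times. The cause was not tested. Same-numbered libraries did not deviate together (correlation of deviations -0.276 to 0.163), so the numbers were taken as names. With the replicate block, 6 genes were called between acupuncture and rt-PA alone (Dusp10 added, -1.12, adjusted p = 0.0433), and the counts of the other 5 comparisons did not change. In Model vs Sham all 6 libraries correlated best with their own number, as a hint from the data (at most 0.128), and in no other comparison did more than 2 of 6. The order of the 4 group means was the same with library size alone for all 9 genes. Counts were 11 to 139 for Dusp2 and 787 to 1903 for Spry2, so counting error weighs most on Dusp2.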

Other observations

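Single libraries stood out in several feedback genes at once, in ways the groups do not describe. Model replicate 1 was the highest of the 12 libraries for Dusp2, Dusp4, Dusp5, Dusp6 and Spry2, and the lowest of its group for Dusp10 and Spry1. Model replicate 3 was the highest library of all for Dusp10 and Spry1, at 19.9 and 18.7 CPM. In the rt-PA group, replicate 2 was the lowest for Dusp4, Dusp5 and Dusp6 and the highest for Dusp10 and Spry1.

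The summed oligodendrocyte markers ordered the Model libraries as Dusp10 did, with 1561, 3585 and 8202 CPM in replicates 1, 2 and 3 against 3.74, 6.43 and 19.9 CPM of Dusp10. In rt-PA+Acu the sums were 20390, 8400 and 3017 CPM against 8.17, 4.19 and 3.51 CPM of Dusp10. In rt-PA they were 2575, 11050 and 3172 CPM against 13.2, 15.3 and 6.27 CPM, where replicates 1 and 3 took the opposite order. In Sham, with sums of 11520 to 17360 CPM, Dusp10 stayed between 7.01 and 7.72 CPM. The order of the Model replicates was not particular to oligodendrocytes. The sums of endothelial (187.5, 221.9 and 344 CPM), neutrophil, lymphocyte and cortical neuron markers rose from replicate 1 to 3 as well. The relation of Dusp10 to the oligodendrocyte sums was noticed in these libraries and was not tested.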
